A study of Mus musculus with 12 samples.

Results

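Cd44, Cd24a, Prom1, Cd9, Slc44a2, Marcksl1, Fxyd3 and Epcam encode proteins of the cell surface or the inner face of the plasma membrane in intestinal epithelium. These 8 genes, of 19938 measured, were selected on measured values of this series, as surface and membrane genes lower in the FSPCre-PPARB KO arrays labelled tumor than in those labelled adjacent. Each was read from the single probe set that the platform annotation ties to that symbol alone. The difference between the KO tissues therefore describes how the genes were chosen and is given with no test. By the deposited values it held for 7 of the 8 genes without overlap between arrays, and not for Epcam.

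RNA came from intestinal epithelium of male C57BL6/J mice with the APCmin/+ background at 25 weeks of age, cut by laser from stained sections and measured on 12 arrays. The APCmin allele inactivates Apc, the brake on beta-catenin, and leads to intestinal adenomas. KO mice (FSPCre-PPARB -/-) carried a Cre named for the fibroblast-specific protein promoter, and their floxed littermates (PPARB flox/flox) were the controls. The Cre is thus named for cells other than the dissected epithelium. Tumor epithelium was on 3 arrays per genotype, and adjacent epithelium on 2 per genotype. For another 2 adjacent arrays, here conflict arrays 1 and 2, title and genotype characteristic disagree on the genotype. They were used for tissue only. The labels do not say which animal an array came from. If animals are shared the p-values are too small, and the spread measured may be technical.

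Several of these proteins are known from stem and tumor cells of the gut. In intestinal crypts, Wnt ligands spare beta-catenin from breakdown. In the nucleus it drives genes of crypt cells with TCF and LEF factors, and loss of Apc has the same effect without a ligand. Cd44, the receptor for hyaluronan, is a known target of this pathway and is raised in Apc-mutant adenomas. Prom1, or prominin, sits on membrane protrusions of crypt cells, and Cd24a, a small lipid-anchored glycoprotein, marks crypt-base cells, including Paneth and secretory cells. Cd9 is a tetraspanin, a membrane organizer that gathers integrins and other receptors, and Epcam is an adhesion protein of nearly all gut epithelium.

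The start regions of 4 of the genes are shown because the pathway named above acts through short TCF and LEF letters near some of its targets. The sequences are from RefSeq (GRCm38.p6), run 5′ to 3′ on the strand of the gene and end at the edge of the annotated gene. That edge shortens the Cd44 sequence to 246 bases, and the others hold 250. Capitals mark the core letters CTTTG of the TCF and LEF motif on either strand, so that CAAAG is the same match on the other strand.
Cd44, chr2:102901670-102901915, minus strand: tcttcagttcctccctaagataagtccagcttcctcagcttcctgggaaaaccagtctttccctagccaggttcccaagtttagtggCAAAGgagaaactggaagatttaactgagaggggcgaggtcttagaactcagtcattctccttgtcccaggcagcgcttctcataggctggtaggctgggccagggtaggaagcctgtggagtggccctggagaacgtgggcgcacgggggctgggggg
Fxyd3, chr7:31076698-31076947, minus strand: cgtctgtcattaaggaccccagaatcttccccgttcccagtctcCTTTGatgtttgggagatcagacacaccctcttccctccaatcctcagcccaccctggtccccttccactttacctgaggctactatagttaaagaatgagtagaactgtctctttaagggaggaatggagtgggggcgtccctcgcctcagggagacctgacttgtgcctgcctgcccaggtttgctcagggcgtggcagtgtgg
Cd9, chr6:125494761-125495010, minus strand: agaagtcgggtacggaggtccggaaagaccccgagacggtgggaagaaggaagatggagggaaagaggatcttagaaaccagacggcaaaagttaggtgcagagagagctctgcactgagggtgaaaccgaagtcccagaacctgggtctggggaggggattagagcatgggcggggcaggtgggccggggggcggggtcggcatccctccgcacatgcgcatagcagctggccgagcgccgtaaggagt
Marcksl1, chr4:129513331-129513580, plus strand: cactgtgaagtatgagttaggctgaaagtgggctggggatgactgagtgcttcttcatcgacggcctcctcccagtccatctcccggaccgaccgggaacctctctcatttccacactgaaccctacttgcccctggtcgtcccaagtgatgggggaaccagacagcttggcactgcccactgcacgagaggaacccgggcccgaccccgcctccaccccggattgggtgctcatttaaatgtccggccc
Entries were found for 7 of the 8 genes, with 9 start windows in all. The letters CTTTG were in 4 of these windows, those of Cd44, Fxyd3 and Epcam and 1 of the windows of Slc44a2. Letters were searched in the 250 bases before each transcript start, the bases not printed included. Among all 32851 such windows 48.6% held CTTTG, so the share in these genes was near that of all genes. The E-box CACGTG, searched for as the site of Myc, was in 0 of the 9 windows and in 6.02% of all windows. A match describes letters only.

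The arrays differed in signal before any gene was compared. Over all probe sets, 4 floxed arrays (tumor 1 and 2, adjacent 1 and 2) reached correlations of only 0.50 to 0.64 with any other array and are called weak-signal arrays, while correlations among the 5 KO arrays were 0.95 to 0.97. Every floxed adjacent array was thus weak, and floxed tumor array 3 was the only floxed array with an agreeing genotype that was not. The arrays that were not weak differed too. Correlations with the KO arrays were 0.96 to 0.97 for conflict array 2, but 0.82 to 0.85 for conflict array 1. They were 0.81 to 0.84 for floxed tumor array 3. Ppard, the floxed gene, ranged on the log2 scale from 4.48 to 5.79 in floxed tumor and from 6.06 to 6.50 in KO tumor epithelium. In adjacent epithelium it ranged from 4.61 to 5.09 (floxed) and from 5.51 to 5.76 (KO). It was not lower in KO, and since the tissue was epithelium these values do not check the genotype.

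The tissue labels of the KO arrays went against what is known of adenomas. Of 24 measured Wnt targets other than Cd44, 22 were below 0 in KO tumor minus KO adjacent arrays, with a median difference of -0.61 against 0.04 over all genes. Prox1, Myc and Notum differed by -1.73, -1.72 and -1.58. The opposite held for enterocyte markers, of which 17 of 17 were higher in KO tumor than in KO adjacent epithelium, at a median difference of 1.53. The mean log2 level of the enterocyte list was 7.82 to 8.55 in KO tumor and 6.04 to 7.03 in KO adjacent arrays. Enterocyte markers were also higher in floxed tumor than in floxed adjacent epithelium, for 17 of 17 genes at a median of 2.37. The enterocyte pattern was thus not particular to the KO arrays, though both floxed adjacent arrays were of weak signal. Wnt targets were split between the floxed tissues, 12 above and 12 below 0. In bulk samples fewer cells of a type and less RNA per cell cannot be told apart. Tissue is named as labelled throughout. Whether the tissue labels of the KO arrays are exchanged was not tested. An exchange would turn the sign of every KO tumor minus KO adjacent value, including those that chose the genes, and would set unlike tissues against each other in both genotype comparisons.

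**Figure D1:**
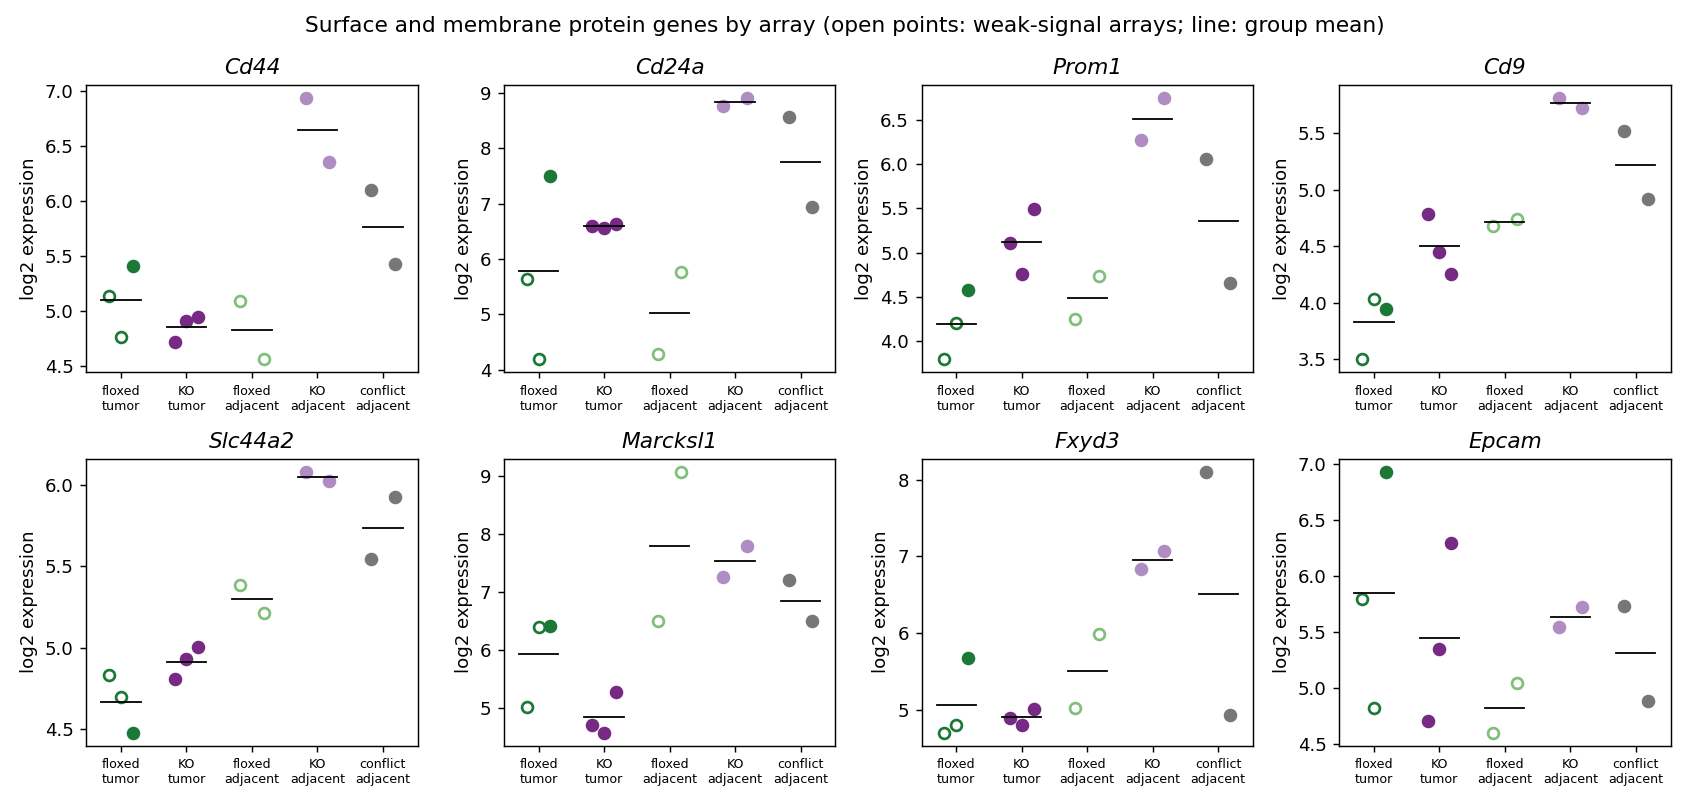
Each panel plots log2 expression of 1 gene (vertical axis) by group (horizontal axis); points are arrays, open points are weak-signal arrays and lines are group means. The KO adjacent arrays lie above the KO tumor arrays in every panel except Epcam, and in Slc44a2 and Marcksl1 all tumor arrays lie below all adjacent arrays.

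The proteins that bind the matrix or mark crypt cells come first. On the log2 scale used throughout, Cd44 in KO mice measured 4.72, 4.91 and 4.95 in tumor and 6.94 and 6.35 in adjacent epithelium, in array order. It was at 5.14, 4.76 and 5.41 in floxed tumor arrays 1 to 3, at 5.09 and 4.57 in floxed adjacent arrays and at 6.10 and 5.43 in conflict arrays 1 and 2. The KO adjacent and conflict arrays lay above every tumor array, and the floxed adjacent arrays did not. The group means ran from 4.83 in floxed adjacent through 4.86 in KO tumor and 5.10 in floxed tumor to 5.77 in conflict and 6.64 in KO adjacent arrays, and the lowest 3 groups overlapped. The KO tissues differed by -1.79, tumor minus adjacent.

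Cd24a spanned the widest range of the crypt-cell genes. Cd24a was at 6.59, 6.56 and 6.63 in KO tumor arrays and at 8.76 and 8.91 in KO adjacent arrays, a difference of -2.24. In floxed tumor arrays 1 to 3 Cd24a was at 5.64, 4.19 and 7.50, and in floxed adjacent arrays at 4.28 and 5.76. The conflict arrays held 8.57 and 6.93. The 4 lowest values were those of the weak-signal arrays, 2 of each tissue, while the 3 KO tumor arrays differed by less than 0.1.

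Prom1 was at 5.11, 4.75 and 5.49 in KO tumor arrays and at 6.27 and 6.75 in KO adjacent arrays, a difference of -1.39. It was at 3.80, 4.20 and 4.57 in floxed tumor arrays, at 4.25 and 4.73 in floxed adjacent arrays and at 6.06 and 4.65 in the conflict arrays. The floxed tissues overlapped, and every floxed tumor array lay below every KO tumor array.

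Cd9 was at 4.79, 4.45 and 4.26 in KO tumor arrays and at 5.81 and 5.72 in KO adjacent arrays, a difference of -1.27. It was at 3.50, 4.04 and 3.94 in floxed tumor arrays, at 4.68 and 4.74 in floxed adjacent arrays and at 5.52 and 4.92 in the conflict arrays. Within the floxed arrays the tissues did not overlap, and KO tumor array 1 was the only tumor array that reached the range of any adjacent array.

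Slc44a2 and Marcksl1 were the genes whose tissues, as labelled, did not overlap across all 12 arrays. Slc44a2, a choline transporter-like membrane protein, was at 4.81, 4.93 and 5.0 in KO tumor arrays and 4.83, 4.70 and 4.48 in floxed tumor arrays. In adjacent epithelium it was at 6.08 and 6.02 in KO, 5.39 and 5.21 in floxed and 5.54 and 5.92 in conflict arrays. Tumor arrays thus ended at 5.0 and adjacent arrays began at 5.21. Marcksl1, a lipid-anchored protein that binds actin and calmodulin under the membrane, was at 4.70, 4.57 and 5.28 in KO tumor and 5.01, 6.39 and 6.40 in floxed tumor arrays. It was at 7.26 and 7.79 in KO adjacent, 6.50 and 9.07 in floxed adjacent and 7.20 and 6.49 in conflict arrays. The gap between the tissues was small, from 6.40 to 6.49, and the highest value came from weak-signal floxed adjacent array 2. Of all genes 0.130% were lower in every tumor array in this way, but 5 of the 12 arrays had served to choose these genes, so nothing is read from the 2 of 8.

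Fxyd3, a small partner of the sodium pump, was at 4.88, 4.80 and 5.0 in KO tumor arrays and at 6.83 and 7.07 in KO adjacent arrays, a difference of -2.05. It was at 4.70, 4.80 and 5.67 in floxed tumor arrays and 5.02 and 5.98 in floxed adjacent arrays. The conflict arrays held the highest value, 8.10, and one inside the tumor range, 4.92. Epcam was at 4.71, 5.35 and 6.29 in KO tumor and 5.55 and 5.72 in KO adjacent arrays, which overlapped, with a difference of -0.18. Epcam was at 5.79, 4.83 and 6.93 in floxed tumor, 4.60 and 5.04 in floxed adjacent and 5.73 and 4.89 in conflict arrays. It did not follow the other 7 genes.

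Over the KO arrays the 8 genes had a median tissue difference of -1.59. All 8 differences were below 0, as were 42.7% over all genes, and 7 of 8 genes were lower in tumor without overlap, as were 14.1% of all genes. The choice of the genes fixed these counts, and nothing is read from them.

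Earlier results of these data were known when the genes were chosen, but the rule of choice named the KO arrays only. The floxed arrays allowed the same comparison in samples that this rule had not used. There the tumor arrays of Cd9, Slc44a2 and Marcksl1 all lay below the adjacent arrays, by 0.89, 0.63 and 1.85 log2 units, Prom1 and Fxyd3 differed by -0.30 and -0.44, and Cd44, Cd24a and Epcam by 0.28, 0.76 and 1.03 the other way. None passed the test, whose spread was pooled over the 10-array model and so took in the KO arrays that chose the genes. The SE and p-values are thus not free of that choice. With 3 floxed tumor and 2 floxed adjacent arrays, Cd9 differed by -0.89 ± 0.27 (SE; limma adjusted p = 0.256). Slc44a2 differed by -0.63 ± 0.24 (adjusted p = 0.330) and Marcksl1 by -1.85 ± 0.66 (adjusted p = 0.316). For Cd44 the value was 0.28 ± 0.30 (adjusted p = 0.746), for Cd24a 0.76 ± 0.75 (adjusted p = 0.712) and for Epcam 1.03 ± 0.57 (adjusted p = 0.485). Cd9 in floxed tumor arrays 1 to 3, at 3.50, 4.04 and 3.94, lay below the medians of all probe sets, 4.39, 4.43 and 4.25. Prom1 in arrays 1 and 2, at 3.80 and 4.20, did so as well. Slc44a2, at 4.83, 4.70 and 4.48, lay little above these medians, and Marcksl1, from 5.01 to 6.40, further above. The differences of Cd9, Prom1 and Slc44a2 thus rest on low signal.

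By limma's adjusted p 0 of 8 genes were called in the floxed arrays, where 0.00502% of all genes were. At an unadjusted p under 0.05, by the same pooled spread, there were 3 of 8 against 12.5% of all genes. The tissues did not overlap, with tumor lower, in 3 of 8 genes against 10.1% of all genes. Differences below 0 numbered 5 of 8, near the 50.8% over all genes, and the median over the 8 was -0.37 against -0.01.

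With the conflict arrays added, 3 floxed tumor arrays stood against 4 adjacent arrays that the choice had not used. By title conflict array 1 was KO and conflict array 2 floxed, and by characteristic the reverse. Under either reading the adjacent side thus mixed KO and floxed epithelium, while the tumor side was floxed only. Tissue and genotype therefore cannot be fully told apart here. Cd9 differed by -1.14 ± 0.33 (SE), Slc44a2 by -0.85 ± 0.31, Marcksl1 by -1.38 ± 0.63, Fxyd3 by -0.95 ± 0.69 and Prom1 by -0.73 ± 0.45. Cd24a and Cd44 differed by -0.61 ± 0.97 and -0.19 ± 0.40, and Epcam by 0.78 ± 0.49. By limma 0 of 8 passed, each with an adjusted p of 0.9998, and 0 of all genes did, which is 0% (2 of 8 and 1.95% of all genes at an unadjusted p under 0.05). Tumor arrays lay below all 4 adjacent arrays for the same 3 genes, Cd9, Slc44a2 and Marcksl1, 3 of 8 against 2.20% of all genes. The median over the 8 was -0.79 against 0.01 over all genes, and 7 of 8 differences were below 0 against 49.3%. Under either reading 1 conflict array was KO adjacent, the kind of sample in which the genes had been chosen as high. Counts that include the conflict arrays are thus no independent evidence on the genes.

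These 7 arrays were also split by signal. Genotype was alike among the 4 weak-signal arrays, all floxed, but not among the other 3, whose correlations with the KO arrays also differed. Among the 4 weak-signal arrays, tumor minus adjacent was -0.94 for Cd9, -0.54 for Slc44a2 and -2.08 for Marcksl1 (2 against 2 arrays). Among the other 3 arrays it was -1.28, -1.26 and -0.44 (1 against 2). These were floxed tumor array 3 and the conflict arrays, so that set held a single tumor array and mixed genotype with tissue. Tumor values lay below adjacent values in both sets for these 3 genes and Prom1 (-0.49 and -0.78), 4 of 8, as they did for 6.18% of all genes. Fxyd3 differed by -0.75 and -0.84, Cd24a by -0.11 and -0.24, Cd44 by 0.12 and -0.36 and Epcam by 0.49 and 1.62. Whether the tissue differences of KO and floxed arrays differed was not tested, because the KO difference had chosen the genes.

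**Figure D2:**
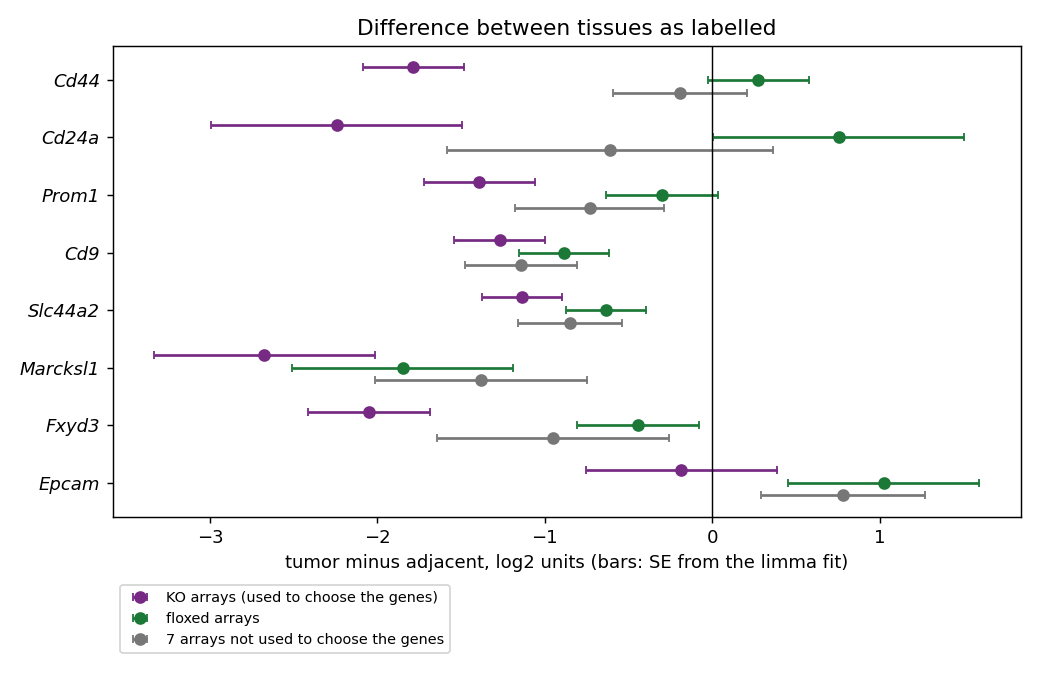
Tumor minus adjacent in log2 units (horizontal axis) for each gene (vertical axis) in the KO arrays, the floxed arrays and the 7 arrays not used to choose the genes; bars are SE from the limma fit. Prom1, Cd9, Slc44a2, Marcksl1 and Fxyd3 lie below 0 in all 3 sets, while Cd44, Cd24a and Epcam lie above 0 in the floxed arrays.

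Marker levels of other cells are given beside these values. Tumor minus adjacent was above 0 for 17 of 17 enterocyte markers in the floxed arrays, with a median of 2.37 and 0 calls, with list means of 5.79 to 8.84 against 4.92 to 5.70. With the conflict arrays added the median was 1.19. Epithelial markers were above 0 for 15 of 16 genes with a median of 1.09 in the floxed arrays, and their list means were 4.89 to 5.81 in the weak-signal arrays and 6.08 to 7.45 in the others. Of 21 leukocyte markers 14 were above 0 and 7 below, with list means of 4.25 to 4.65 in floxed tumor and 4.23 to 4.46 in floxed adjacent arrays. Fibroblast list means were 4.23 to 4.59 and 4.55 to 4.64. Paneth markers, of a cell type that carries Cd24a, were below 0 for 5 of 6 genes measured of 12 listed, with a median of -0.36. Their list means overlapped, at 4.57 to 5.0 in floxed tumor and 4.95 to 5.44 in floxed adjacent arrays, and Cd24a itself differed by 0.76. No gene of these lists passed the test in the floxed comparison. The part of these markers in the differences of the surface genes was not tested.

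**Figure D3:**
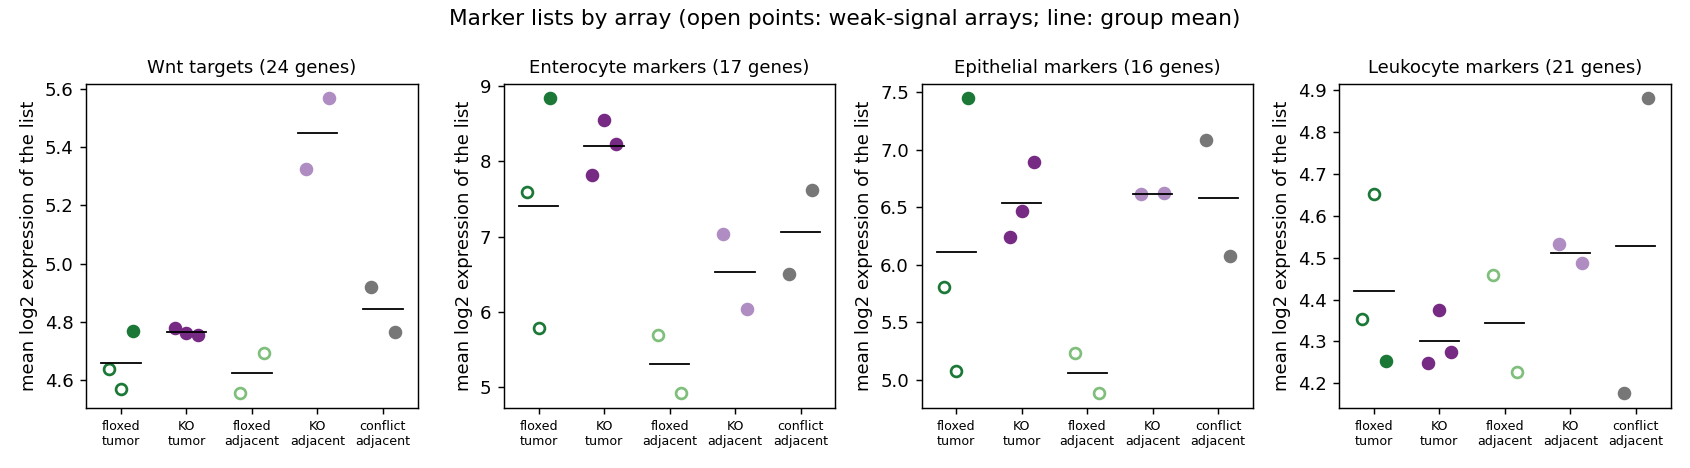
Mean log2 expression of 4 marker lists (vertical axes) by group (horizontal axis); points are arrays, open points are weak-signal arrays and lines are group means. Wnt targets reach 5.33 and 5.57 in the KO adjacent arrays alone, while enterocyte markers are at 7.82 to 8.55 in KO tumor and 4.92 to 5.70 in floxed adjacent arrays.

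Lists of relatives and partners gave no call between floxed tissues. Of 23 measured tetraspanins and Cd9 partners, 13 were above 0 and 10 below, with a median of 0.15, and Cd81 and Cd63, tetraspanins like Cd9, differed by 0.80 and 0.26. Partners of Cd44, among them the hyaluronan synthases and the proteins that tie membranes to actin, had a median of -0.13 over 18 genes, with Ezr, ezrin, at 1.44 and Msn, moesin, at -0.42. Partners of Epcam were above 0 for 10 of 12 genes with a median of 0.43, and the junction proteins Cldn7 and Cdh1 differed by 0.60 and 1.10. A list of Marcks, Gap43, Basp1, protein kinases C, calmodulins and Adap1 was above 0 for 9 of 9 genes with a median of 0.64, while Marcksl1 itself was at -1.85. Of all genes 50.8% were below 0. The means of this list were 4.74 to 5.43 in weak-signal arrays and 5.92 to 6.40 in the others. Those of the Epcam partners were 4.76 to 5.04 and 5.53 to 6.08. Both floxed adjacent arrays were of weak signal, so signal and tissue cannot be fully told apart in these lists. Relatives of Fxyd3 and subunits of the sodium pump had a median of -0.10 over 9 genes, with the pump subunit Atp1b1 at 1.46, and relatives of Slc44a2 and choline enzymes one of 0.18 over 11, with Slc44a4 at 0.58. Other surface proteins linked to gut tumors were above 0 for 22 of 29 genes with a median of 0.36, and Wnt targets were split, 12 and 12 of 24, at a median of -0.06. Of 16 stem cell markers 7 were above 0, and of 8 relatives of Prom1 and Cd24a 4 were.

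In KO tumor arrays against floxed tumor arrays, the comparison the series title names, the genes went both ways. The KO tumor arrays had helped to choose the genes, as low there, so these values are no independent evidence on them. Prom1 was higher in every KO tumor array, by 0.93 ± 0.30 (SE, n = 3 and 3; limma adjusted p = 0.119), and so was Cd9, by 0.67 ± 0.24 (adjusted p = 0.145). Cd24a differed by 0.82 ± 0.67 and Slc44a2 by 0.25 ± 0.21, Marcksl1 by -1.08 ± 0.59, Epcam by -0.40 ± 0.51, Cd44 by -0.24 ± 0.27 and Fxyd3 by -0.16 ± 0.33, and none passed (adjusted p from 0.296 to 0.801). In all, 0 of 8 passed by limma's adjusted p, against 1.08% of all genes, and 2 of 8 had an unadjusted p under 0.05, against 23.0%. Arrays did not overlap, with KO higher, in 2 of 8 genes against 13.2%. A replicate block also left 0 of 8 genes past the test, and moved the count over all genes from 215 to 782. Without floxed tumor array 3, the one floxed tumor array of stronger signal, Cd24a (1.68, adjusted p = 0.0222) and Prom1 (1.12, adjusted p = 0.0178) passed. Against that array alone, a single floxed array with no spread of its own, KO minus floxed was -0.91 for Cd24a, -1.55 for Marcksl1 and -0.78 for Fxyd3, so the sign for Cd24a turned with the arrays used.

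Among the relatives in that comparison, Tspan13, a tetraspanin, was higher in KO by 2.12 ± 0.43 (SE; limma adjusted p = 0.0484), Erbb2, a growth factor receptor, by 1.83 ± 0.34 (adjusted p = 0.0438), and Ttyh3, a tweety-family membrane protein, by 1.27 ± 0.26 (adjusted p = 0.0478). These were the 1 of 23 tetraspanins and Cd9 partners, 1 of 29 other surface proteins and 1 of 8 relatives of Prom1 and Cd24a that passed, all higher. The other partner and relative lists had 0 genes past the test. Of the other cell types, 1 of 21 leukocyte markers was lower, S100a8 of neutrophils by -1.39, and 1 of 13 fibroblast markers higher, the collagen Col3a1 by 1.21. Their part in the values above was not tested. Over all genes 1.08% were called in this comparison, and the count ranged from 0 to 5793 over the alternatives. Floxed tumor arrays 1 and 2 were of weak signal, so signal and genotype cannot be fully told apart. Nothing is read from these list calls.

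The genes had been chosen as high in the KO adjacent arrays, so their levels there against floxed adjacent arrays are a description. KO minus floxed was 3.82 ± 0.82 for Cd24a (SE, n = 2 and 2), 2.02 ± 0.37 for Prom1 and 1.82 ± 0.33 for Cd44. Fxyd3 and Cd9 differed by 1.45 ± 0.40 and 1.06 ± 0.30, Slc44a2 by 0.75 ± 0.26, Epcam by 0.81 ± 0.62 and Marcksl1 by -0.26 ± 0.72. By limma's adjusted p 3 of 8, Cd24a, Prom1 and Cd44, were called higher beside 2.91% of all genes (6.06% in either direction), and arrays did not overlap, with KO higher, in 7 of 8 against 32.1%. Nothing is read from these counts, and both floxed arrays were of weak signal, so signal and genotype cannot be told apart here. Epithelial markers were above 0 for 16 of 16 genes, with a median of 1.53 and 0 calls. Calls among other cell types, all higher, were the goblet cell genes Agr2 (4.31) and Clca1 (3.42), the mast cell proteases Mcpt1 (2.53) and Mcpt2 (2.43) and the matrix gene Dcn (1.53), and their part was not tested. The 3 calls fell to 0 after quantile normalizing again, under either reading of the conflicting labels, and without either KO adjacent array or floxed adjacent array 2, and to 1, Cd44, without floxed adjacent array 1.

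Wnt targets gave 4 of 24 higher and 1 lower in the adjacent comparison, with Notum, a secreted Wnt inhibitor, at 2.12 and the cyclin Ccnd1 at 2.05 and Dkk2, a Wnt inhibitor called lower, at -1.24. Tspan1, Tspan13 and Tspan14 were the 3 of 23 tetraspanins and Cd9 partners called higher, at 1.24, 2.18 and 1.31. Of the sodium pump list 1 of 9 was higher, Atp1b3 at 1.96, of the partners of Epcam 1 of 12, Ctnnb1, beta-catenin, at 2.73, and of the list with Marcks and the calmodulins 1 of 9, Basp1 at 1.28. Of the choline list 1 of 11 was lower, Slc44a5, a relative of Slc44a2, at -1.46. Other tumor-linked surface proteins gave 3 of 29, all higher, the receptors Erbb2 and Egfr at 2.14 and 1.5 and Bsg, basigin, at 1.95. Over all genes 2.91% were called higher in this comparison and 6.06% in either direction, and both floxed adjacent arrays were of weak signal. The count over all genes ranged from 1 to 4034 over the alternatives, so nothing is read from these list calls.

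Genes with the most similar levels over the 12 arrays were found for the 4 genes of the crypt and tetraspanin group, as a description that shares the tissue contrast and the weak arrays. For Cd44 these were AI506816, Erh and Cbx3 (Pearson's r = 0.92, 0.92 and 0.90), and for Cd24a they were Tcf12, Tgif1 and Eif3d (0.97, 0.97 and 0.96). For Prom1 they were Rbms1, Capn5 and Sypl (0.95, 0.93 and 0.93), and for Cd9 they were Igfbp2, Pa2g4 and Qser1 (0.93, 0.92 and 0.90). In the 8 arrays without weak signal the same 12 pairs had r between 0.90 and 0.95. Erh, for example, was at 4.36 to 4.58 in KO tumor and 6.04 to 6.09 in KO adjacent arrays, and at 4.45 to 5.15 in the floxed arrays.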

How the data were processed

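Log2 expression values of 35556 probe sets on each of the 12 arrays were deposited. The submitters' processing notes name RMA and Partek, without versions or settings. RNA was prepared with a GeneChip WT Pico kit, per the labels' protocols. Of the probe sets 21789 had 1 gene symbol in the platform annotation, 1621 had several and 12146 were unnamed here. Where several probe sets shared a gene, the one of highest mean was kept, for 19938 genes in all. All 8 genes had 1 probe set.

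Using limma 3.58.1 (R 4.3.3), 1 model of 4 groups was fitted to the 10 arrays whose genotype labels agree (lmFit, eBayes, two-sided, Benjamini-Hochberg over all genes), and the 7 arrays not used to choose the genes in 2 tissue groups. A call is an adjusted p under 0.05. Weak-signal arrays had a median correlation with the others under 0.7. The steps were tested on simulated data in which arrays differed in spread as here, and in the 10-array model, simulated for the floxed tissues, calls among unchanged genes were more frequent than the threshold allows. The genotype comparisons were not simulated. The number of arrays limits the precision.

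The genes and the 20 partner and marker lists were chosen with earlier results of these data known. The text names the 8 genes, Ppard, the 3 genes most correlated with each of Cd44, Cd24a, Prom1 and Cd9, and from each list up to 4 genes past the test by smallest adjusted p and up to 4 of highest mean. Prox1, Myc and Notum in the KO tissues were picked after their values were seen. Same-numbered KO and floxed tumor arrays deviated together, by title number, at r = 0.105, 0.121 and 0.347 across genes, all above 0.1, which was the bar for pairing, although KO tumor array 1 reached 0.246 with floxed tumor array 2. The block was used as an alternative only. Other scaling, filters, variance options, array weights, thresholds, left-out arrays and both readings of the conflicting labels were tried.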

Additional observations from a re-analysis of the deposited data

How the results depend on the processing

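Alternatives left the call of 0 of 8 genes as it was in all 16 settings for the floxed tissues, and in 15 of 16 for the 7 arrays. In the latter, the replicate block on floxed arrays only, where 2 pairs share no more than a number, called 1 gene, Marcksl1 (-2.08, adjusted p = 0.0445), and gave Cd44 0.12. KO against floxed tumor gave 0 of 8 in 16 of 18 settings and 3 without weak-signal arrays, where the 1 floxed array was assumed to vary like the KO arrays, and 0 to 2 when single arrays were left out. KO against floxed adjacent gave 0 after quantile normalizing again and 0 with the conflicting labels read by title or by characteristic, 5 with array weights and with only the arrays compared, 6 at an adjusted p under 0.1, 4 with the replicate block by title number, and 0 to 1 when single arrays were left out. The genes had been chosen as high in the KO adjacent arrays, so nothing is read from the counts of this adjacent comparison. The descriptions number the KO adjacent arrays otherwise, and same-numbered adjacent arrays correlated at 0.0099 in their deviations, so they share no more than a number.

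Signs turned for Cd44 (-0.15) and Cd24a (-0.43) in floxed tissues with labels read by characteristic, and with single arrays left out for Cd24a (-0.11 to 1.55) and Fxyd3 (-0.93 to 0.039). In the 7 arrays they turned so for Cd44 (-0.44 to 0.075) and Cd24a (-1.47 to 0.19). In KO against floxed tumor Cd24a turned to -0.91 without weak-signal arrays, and Fxyd3 (-0.34 to 0.15) and Epcam (-0.91 to 0.14) with single arrays left out. In KO against floxed adjacent Marcksl1 turned to 0.066 by title and ranged from -1.54 to 1.03 with single arrays left out, and Fxyd3 turned to -0.094 by characteristic. The cause was not tested. Cd9, Slc44a2 and Prom1 kept a sign below 0 in all 16 alternatives of both tissue comparisons, as did Marcksl1.

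Counts over all genes moved most. The floxed tissues gave 1 gene, and 0 to 343 over the alternatives, 343 without floxed tumor array 2. The 7 arrays gave 0, and 19 with the block. KO against floxed tumor gave 215, and 0 to 5793, and KO against floxed adjacent 1209, and 1 to 4034.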
